A study of Homo sapiens with 5 samples.

Results

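The GNRH1-high neurons of day 26 are the cells of a differentiating human culture whose own gonadotropin-releasing hormone transcript stood far above that of their neighbours. They were chosen on GNRH1 itself. A cell barcode of the day 26 library was kept if it had at least 1500 unique molecular identifiers (UMIs, each counting 1 captured transcript) and at least 1000 genes with a mitochondrial share under 20%. It was a member if its GNRH1 level was at least 3000 counts per 1000000 of all its UMIs (CPM of the cell). This gave 999 members among 11060 kept cells of day 26, or 9.03% (95% Clopper-Pearson interval 8.50% to 9.58%), and among 29709 kept cells of days 22, 24 and 26 together. At day 24, 345 of 9110 kept cells met the same rule (3.79%), and at day 22, 6 of 9539 did (0.0629%).

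All 3 libraries came from WA09, a wild-type human embryonic stem cell line also known as H9. The cells were differentiated by inhibition of SMAD signalling, then FGF8, then the Notch inhibitor DAPT, with a freeze and thaw midway. The labels call the cells of each day neurons and give their treatment as n/a, and the Wnt inhibitor XAV939 of other samples of the series is not named for them. Each day was 1 library of 1 culture of 1 line, without a replicate, so no difference below was tested. Intervals are at the 95% level and cover counting error only.

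GnRH neurons are the small population of hypothalamic cells that release gonadotropin-releasing hormone and so set the pituitary output of the hormones that drive puberty and fertility. In the embryo their precursors lie in the nose, and a failure to reach the hypothalamus is known as a cause of absent puberty with loss of smell. DLX genes code for homeodomain transcription factors that are known for specifying GABAergic neurons of the ventral forebrain and are also active in the olfactory placode. GAD1 and GAD2 make the transmitter GABA, and SLC32A1 loads it into vesicles.

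The markers fixed for these cells besides GNRH1 were DLX5, DLX6-AS1, SCGN and ISL1. On GRCh38 with the GENCODE 44 annotation, DLX5 lies at chr7:97020396-97024950 on the minus strand, and DLX6-AS1 lies beside it at chr7:96955141-97014088, also on the minus strand. SCGN lies at chr6:25652201-25701783 and ISL1 at chr5:51383448-51394730, both on the plus strand. The 250 bases before the RefSeq start of 3 of these genes are shown because the 3 genes were higher together in the members and DLX proteins belong to the homeodomain class, whose sites share the core TAAT, here searched in the longer form TAATT. Capitals mark TAATT or its reverse complement AATTA, which overlap in TAATTA. The windows are on GRCh38.p14, chr7:97014066-97014315 minus strand, chr6:25651965-25652214 plus strand and chr5:51383198-51383447 plus strand, written 5′ to 3′. DLX5 had no entry.
DLX6-AS1: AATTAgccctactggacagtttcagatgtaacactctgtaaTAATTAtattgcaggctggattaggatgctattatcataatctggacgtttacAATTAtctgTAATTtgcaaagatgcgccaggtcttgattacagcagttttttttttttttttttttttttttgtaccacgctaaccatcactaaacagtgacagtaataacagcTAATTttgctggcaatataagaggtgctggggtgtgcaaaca
SCGN: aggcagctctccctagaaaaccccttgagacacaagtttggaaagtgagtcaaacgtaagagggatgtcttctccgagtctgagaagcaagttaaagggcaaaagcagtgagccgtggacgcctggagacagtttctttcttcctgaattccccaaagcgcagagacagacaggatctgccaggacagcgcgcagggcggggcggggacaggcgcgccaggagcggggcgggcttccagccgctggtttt
ISL1: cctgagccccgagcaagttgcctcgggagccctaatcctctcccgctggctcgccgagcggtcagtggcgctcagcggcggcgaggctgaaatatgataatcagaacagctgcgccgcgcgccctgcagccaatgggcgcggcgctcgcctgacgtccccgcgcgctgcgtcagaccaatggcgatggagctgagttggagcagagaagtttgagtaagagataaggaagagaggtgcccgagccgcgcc

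The DLX6-AS1 window held 6 matches, counting overlaps, and the SCGN and ISL1 windows held 0. The DLX6-AS1 window was AT-rich, with 35.2% G and C against 57.6% for SCGN and 65.2% for ISL1. Over 35114 RefSeq windows of the same length, 23.1% held the motif. Of the 61 genes that were at least 2-fold higher in the members (below), 42 had a window and 9 of these held it, or 21.4%, near the share of all windows. Of the 76 lower genes, 59 had a window and 8 held it, or 13.6%. A match is a description of letters, not a binding site.

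The members held nearly all of the hormone transcript of the culture. Their GNRH1 UMIs numbered 315295 of 325432 in all kept cells, or 96.9%. A member had a median of 226 GNRH1 UMIs, and its level ran from 3034 CPM of the cell through a median of 24654 to 137307. Among the other 10061 cells, 6194 had no GNRH1 UMI. The 345 cells of day 24 reached a median of 22249 CPM, with quartiles that overlapped those of day 26 (11444 to 35794 against 9995 to 46561). The 6 cells of day 22 had a median of 8534. These values chose the cells and are given as a description.

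**Figure D1:**
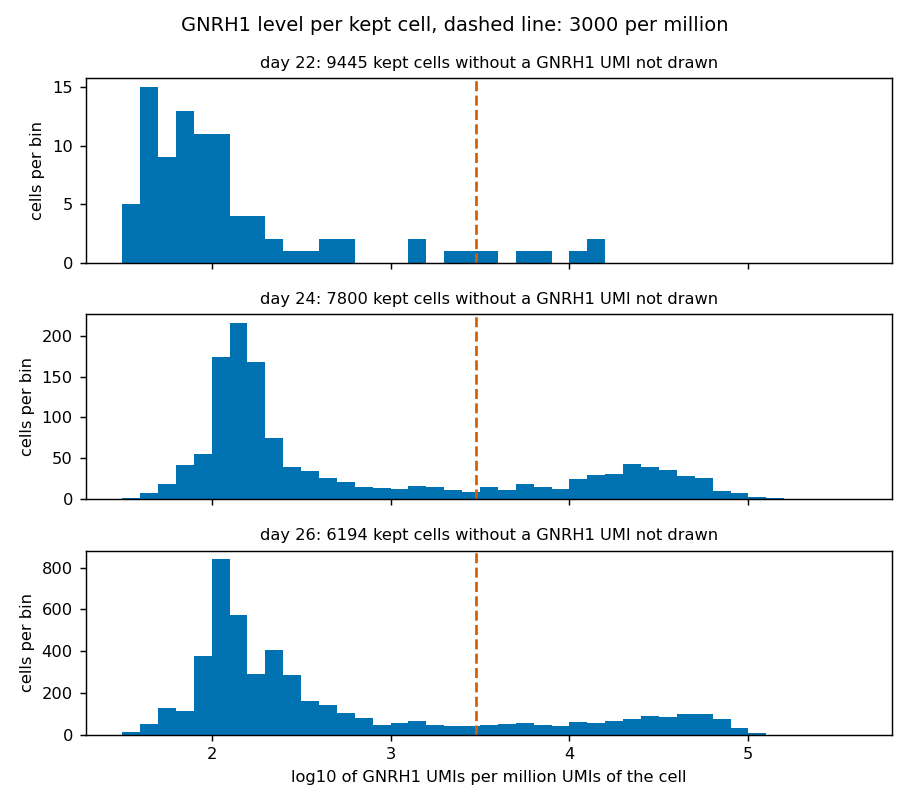
Number of kept cells (y axis, a scale for each day) by log10 of the GNRH1 CPM of the cell (x axis, bins of 0.1), for cells with at least 1 GNRH1 UMI. Days 24 and 26 each show a second, broad hump to the right of the dashed limit, while 9445, 7800 and 6194 cells of days 22, 24 and 26 had no GNRH1 UMI and are not drawn.

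Depth differed little between the members and the rest. The median member had 9729 UMIs on 3114 genes and 3.83% mitochondrial UMIs, and the median of the other cells was 8401 UMIs, 3004 genes and 4.44%. The 3 libraries held 71397909 to 131583840 UMIs in 9824 to 12171 barcodes. Libraries shared 27 to 37 barcodes pairwise, of which 1 to 3 were members in the later library. Neuronal markers were as common in the members as in the rest of the culture, so they do not set the members apart. STMN2 had at least 1 UMI in 100% of members and 99.95% of other cells and DCX in 99.3% and 99.2%, and of 25 pan-neuronal genes 24 lay within 2-fold of the other cells. The 8 listed astrocyte and oligodendrocyte genes summed to 8.54 CPM in members and 12.8 CPM in other cells, with GFAP, AQP4 and SOX10 at 0 UMIs in members, and the 6 neural crest and mesenchyme genes to 0.596 and 2.49 CPM, with SOX10, FOXD3, COL1A1, COL3A1 and PDGFRB at 0. A count of 0 in 999 members allows a share of cells with a UMI of up to 0.300%.

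The 4 markers stood far above the other cells. GNRH1 was taken out of the total of each group before the UMIs of each group were summed and scaled to CPM, since it made up 3.04% of the members' UMIs. SCGN, which codes for the calcium-binding protein secretagogin, stood at 224 CPM (215 to 233) in members and 16.9 CPM (16.1 to 17.8) in other cells, a log2 ratio of 3.72. ISL1, a LIM homeodomain factor of several neuron classes that is present in GnRH neurons, stood at 148 CPM against 11.9 CPM, a log2 ratio of 3.64. DLX5 stood at 246 CPM against 30.8 CPM, and DLX6-AS1, a noncoding RNA that overlaps DLX6 on the other strand, at 253 CPM against 32.6 CPM. The log2 ratios of this pair were 3.00 and 2.95. At day 24, in a library that was not used to choose these cells, the 4 log2 ratios were 4.28, 4.50, 4.67 and 4.90 in the same order. SCGN itself stood at 56.3 CPM in the GNRH1-high cells of day 24, so its larger ratio there is not a higher level. The 6 cells of day 22 held 41 UMIs of DLX5, 130 of DLX6-AS1, 18 of SCGN and 1 of ISL1.

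The markers were not all present in each member. At least 1 UMI of DLX5 was seen in 77.9% of members, of DLX6-AS1 in 60.6%, of ISL1 in 59.8% and of SCGN in 43.6%. In 7816 glutamatergic cells of the same library, which were chosen to hold at least 3 UMIs of a glutamatergic set and under 3 UMIs of a DLX set (both given below) and were not members, these shares were 0.857%, 0.614%, 0.589% and 0.601% at a median depth of 8597 UMIs. The choice of cells capped the DLX5 and DLX6-AS1 shares, so these are no measure of free RNA, while SCGN and ISL1 were not used in it. With each cell thinned to 1500 UMIs, the members' shares were 31.1%, 25.7%, 18.6% and 20.8%, and those of the glutamatergic cells 0.141%, 0.154%, 0.0896% and 0.0768%. All 4 markers were found together in 149 members (14.9%), at least 1 UMI of 3 of them in 362 (36.2%) and none in 54 (5.41%). Of the glutamatergic cells, 0 of 7816 had UMIs of both SCGN and ISL1, which allows a share of up to 0.0384%, against 22.5% of members. In 473 DLX-positive cells with little GNRH1, described below, SCGN and ISL1 were seen together in 8.88% and all 4 markers in 6.34%. ISL1 had a UMI in 34.7% of those cells and SCGN in 30.2%. DLX5 and DLX6-AS1, which helped choose them, were seen in 87.1% and 66.8%.

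A part of the members carried glutamatergic transcripts as well. A cell was counted as DLX-positive with at least 3 UMIs over DLX1, DLX2, DLX5, DLX6 and DLX6-AS1, and as glutamatergic-positive with at least 3 UMIs over TBR1, PPP1R17 and SLC17A6, the last of which codes for a vesicular glutamate transporter. Of the 999 members, 716 (71.7%) were positive for the DLX genes alone, 131 (13.1%) for both sets, 50 (5.01%) for the glutamatergic set alone and 102 (10.2%) for neither. The cells positive for both sets had a median of 18560 UMIs against 9449 in the DLX-only members, and 74.8% of them had a Scrublet doublet score of at least 0.25, against 1.68%. Members positive for the glutamatergic set alone had a median GNRH1 level of 6424 CPM, against 27924 in DLX-only members. The part of captured cell pairs in these values was not tested, and the main counts below are also given for the 716 DLX-only members.

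DLX-positive cells became common below the limit on GNRH1 and levelled off above it. At least 3 DLX UMIs were found in 4.05% of 6194 cells without a GNRH1 UMI, in 7.32% of 3031 cells under 300 CPM, in 29.0% of 590 cells from 300 to 1000, and in 58.1% of 246 cells from 1000 to 3000. Above the limit the shares were 76.8% of 250 cells up to 10000, 88.1% of 327 cells up to 30000 and 87.0% of 422 cells beyond. The share with at least 3 glutamatergic UMIs went the other way, from 80.9% without a GNRH1 UMI to 7.35% beyond 30000 CPM. On either side of the limit the DLX-positive shares were close: 51 of 73 cells from 2000 to 3000 CPM were DLX-positive (69.9%), and 40 of 55 cells from 3000 to 4000 (72.7%). In these narrow windows TAC1 stood at 97.2 CPM (75.3 to 123) just outside and 175 CPM (140 to 216) just inside, but in the full bins on either side of the limit at 120.2 CPM and 127 CPM.

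Other genes kept climbing with GNRH1 within the members. From the lowest to the highest of the 3 bins above the limit, MEIS2, a TALE homeodomain factor, went from 336 to 529 to 750.5 CPM, and TAC1, which encodes the precursor of substance P and neurokinin A, from 127 to 210 to 277 CPM. ISL1 went from 102 to 151 to 175 CPM and SEMA3C from 64.5 to 92.3 to 107 CPM. SCGN went the other way, from 280 to 232 to 181 CPM, while DLX5 stood at 232, 236 and 264 CPM. TBR1 went from 98.9 to 68.5 to 30.9 CPM, so the lowest bin held the most glutamatergic RNA.

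**Figure D2:**
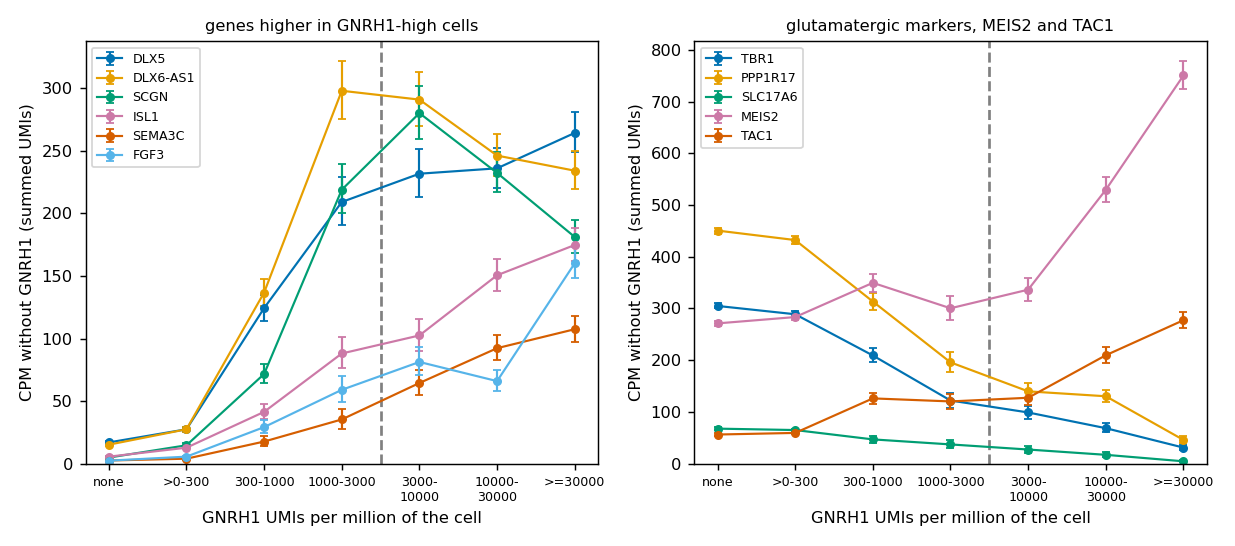
Level in CPM without GNRH1 (y axis) of 6 genes that were higher in GNRH1-high cells (left) and of 3 glutamatergic markers with MEIS2 and TAC1 (right) in 7 bins of the cell's GNRH1 level (x axis), with points for summed UMIs of day 26 cells and bars for exact 95% Poisson intervals. DLX5 and DLX6-AS1 are already near their plateau to the left of the dashed limit, whereas MEIS2 and TAC1 climb most in the last 2 bins.

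Across all genes, the members differed from the other kept cells of day 26 in a limited set. Of 3414 genes with at least 50 CPM in 1 group, 61 were at least 2-fold higher in the members (1.79%) and 76 were at least 2-fold lower (2.23%). With only the 716 DLX-only members the counts were 84 (2.44%) and 117 (3.4%) of 3444 genes. The other cells themselves held 644 cells positive for the DLX genes alone and 143 for both sets, so the ratios are set against a mixed group. The highest ratio was that of SEMA3C, which codes for a secreted semaphorin that guides migrating neurons and axons, at 91.5 CPM (85.7 to 97.6) against 4.57 CPM (4.14 to 5.04), a log2 ratio of 4.32. Next came a pair of fibroblast growth factor genes. FGF3 stood at 108 CPM against 6.24 CPM (log2 ratio 4.11) and FGF19 at 92.5 CPM against 5.56 CPM (log2 ratio 4.06). FGF3 and FGF19 lie 105946 bases apart on chromosome 11, at chr11:69809968-69819416 and chr11:69698238-69704022. FGF3 or FGF19 had a UMI in 43.5% of members and both in 22.5%, against 0.371% and 0 of 7816 glutamatergic cells (up to 0.0384%) for the same counts. In 473 DLX-positive cells with little GNRH1, described below, these shares were 31.1% and 13.1%.

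The next ranks mixed splicing, transcription and transmitter genes. The neuronal splicing factor RBFOX1 had a log2 ratio of 3.58 and the MADS-box transcription factor MEF2C 3.49. SLC32A1 stood at 52.4 CPM against 5.82 CPM (log2 ratio 3.17). DLX6, RASD1, C11orf96, DLX1 and ECEL1 had log2 ratios of 3.14, 3.12, 3.12, 3.04 and 3.01. RASD1 codes for a small Ras-like protein that is inducible by dexamethasone, and ECEL1 for a neuronal membrane metalloprotease. In the 473 DLX-positive cells with little GNRH1, described below, RASD1 stood at 236 CPM, above the 209 CPM of members. C11orf96 had a UMI in 35.5% of those cells and 33.4% of members, and ECEL1 in 56.03% and 57.36%. RBFOX1 and MEF2C were more common in members, at 43.1% and 51.5%, against 24.9% and 40.4% of those cells.

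Of the 15 genes with the smallest ratios, 6 were on the list of glutamatergic genes, TNIP3, LHX1, LHX5, TBR1, GABRA2 and LHX9. That list was chosen with earlier results of these data known, so this count is a description. CDH18, a cadherin, stood at 11.7 CPM in members and 67.0 CPM in other cells (log2 ratio -2.52), the calcium channel subunit CACNA2D1 at 12.6 against 70.1 CPM (-2.47), and CRABP1, which binds retinoic acid in the cytoplasm, at 14.6 against 75.3 CPM (-2.37). The LIM homeodomain genes LHX1, LHX5 and LHX9 had log2 ratios of -2.32, -2.31 and -2.22, and TBR1, a T-box factor of glutamatergic forebrain neurons, stood at 61.0 against 290 CPM (-2.25). TNIP3, LHX5-AS1, KLHL4, RORB, SAMD3, GABRA2 and PCP4L1 were also among the 15 lowest, at -2.19 to -2.51. These ratios depended on the members that carried glutamatergic RNA. In the DLX-only members, which were chosen partly on TBR1, the log2 ratio of CDH18 was -4.95 and that of LHX1 -5.28.

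Most of this pattern was also found at day 24. There, 64 of 2798 genes were at least 2-fold higher (2.29%) and 103 at least 2-fold lower (3.68%) in the GNRH1-high cells than in the other cells of their own library. Of the higher genes, 37 were shared by both days, 60.7% of those of day 26 and 57.8% of those of day 24. Of the lower genes, 39 were shared, 51.3% and 37.9%. Among the 61 genes higher at day 26, 59 lay in the same direction at day 24, and all 76 lower genes did. Of the 15 highest and the 15 lowest genes, 12 each passed 2-fold and 50 CPM at day 24. FGF19 had a log2 ratio of 6.60 there and FGF3 6.35, at 147 CPM and 81.5 CPM in the GNRH1-high cells. PCP4L1 had a log2 ratio of -0.81 at day 24, from 5.37 CPM against 9.41 CPM.

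**Figure D3:**
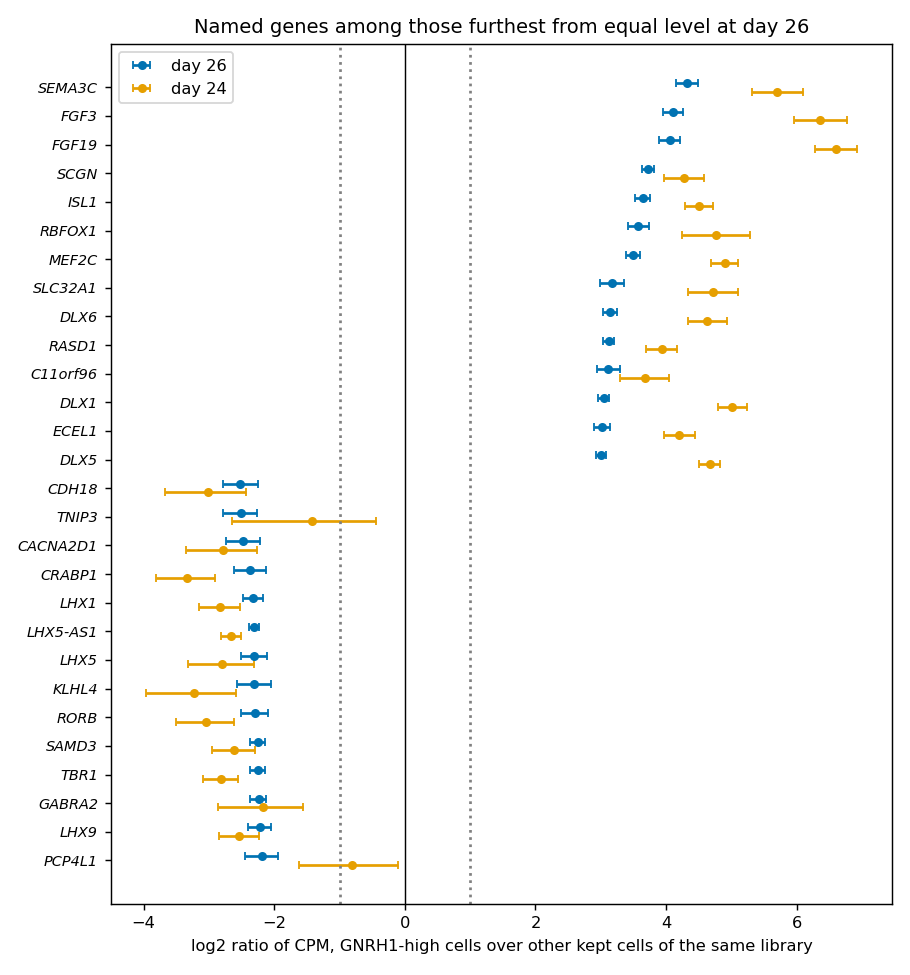
Log2 ratio of CPM, GNRH1-high cells over the other kept cells of the same library (x axis), for the named genes among the 15 highest and 15 lowest of day 26 (y axis), at day 26 and day 24, with bars for 95% counting intervals and dotted lines at 2-fold. Each upper gene drawn has the larger ratio at day 24, and all genes drawn lie on the same side of 0 on both days. A larger ratio need not be a higher level: SCGN stood at 56.3 CPM in the GNRH1-high cells of day 24 and 224 CPM in those of day 26.

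Several of these genes lay beside each other in the genome and moved in the same direction. DLX1 and DLX2 lie 9761 bases apart on chromosome 2, and DLX5, DLX6 and DLX6-AS1 share a locus on chromosome 7. SIX3 and LINC01833, and MEF2C and LINC00461, were neighbours among the higher genes. LHX1 and LHX1-DT, LHX5 and LHX5-AS1, and EMX2 and EMX2OS were neighbours among the lower genes. DLX6-AS1 overlaps DLX6 on the opposite strand. Whether counting used the strand is not given in the sources used here, so their UMIs may be split or shared wrongly.

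Gene lists were read with a lower minimum of 10 CPM in 1 group. Of 8465 genes at that minimum, 2.14% were at least 2-fold higher and 2.74% lower, with a median log2 ratio of -0.04. The list of DLX and GABAergic genes holds the markers DLX5 and DLX6-AS1. It was chosen with earlier results of these data known, so its counts are a description. Of 15 genes, 13 reached the minimum, 11 were higher and 2 lower, with a median log2 ratio of 2.96. At day 24, where 2.54% of 7724 genes were higher and 4.75% lower, 11 of 12 were higher and 1 lower, with a median of 4.57. The zinc finger factors SP9 and SP8 had log2 ratios of 3.69 and 2.71, DLX2 2.96 and GAD2 2.69, at 153 CPM against 23.8 CPM. GAD1 was low, at 11.0 CPM (9.07 to 13.3) against 2.34 CPM, so the GABA-making transcript of these cells was mostly GAD2. The lower genes included the ETS factor ETV1 (-2.21), at 8.64 CPM against 40.0 CPM. In single cells, GAD1 or GAD2 had a UMI in 65.0% of members, and together with SLC32A1 in 25.7%, against 0.972% and 0.0128% of glutamatergic cells and 79.1% and 37.0% of the DLX-positive cells with little GNRH1. SLC17A6 and SLC32A1 were seen in the same cell in 3.30% of members.

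Transcription factors of the GnRH lineage were split. Of 27 listed genes 16 reached the minimum. Of these 5 were higher, among them ISL1, SIX3, LMO3 and MEIS2, TSHZ1 was lower and 10 lay within 2-fold. SIX3, a factor of the anterior forebrain and eye field, stood at 535 CPM (521 to 550) against 144 CPM, and MEIS2 at 570.2 CPM against 280.0 CPM. MEIS2 was not higher throughout the members: it had a UMI in 63.0% of them and 62.7% of other cells, and in the clusters of members described below it stood at 1424 CPM in cluster 2 but at 162 and 152 CPM in clusters 1 and 4. SIX6, SIX2, ISL2, LHX6 and LHX8 had a UMI in 0 of 999 members (up to 0.300%). Among 23 genes listed as regulators of the GNRH1 promoter, 12 reached the minimum. DLX5, DLX2, SIX3 and TLE4, a corepressor at 889 CPM against 386 CPM, were higher, and RORA was lower. OTX2 stood at 14.6 CPM against 16.1 CPM, and POU2F1 at 75.6 against 92.8 CPM. Against the DLX-positive cells with little GNRH1, described below, 16 of the 27 lineage factors reached the minimum. Of these 0 were at least 2-fold higher in the members and 3 were lower, NR2F2, VAX1 and LMO3.

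Genes in which variants cause congenital hypogonadotropic hypogonadism, a failure of puberty from missing or silent GnRH neurons, were mostly near the other cells. Of 51, 27 reached the minimum, 1 was higher, 3 were lower and 23 lay within 2-fold. The higher gene was DUSP6, a phosphatase that dampens FGF signalling through ERK, at 25.9 CPM against 11.2 CPM. The lower genes were FEZF1, the prohormone convertase gene PCSK1 and FLRT3, with log2 ratios of -2.47, -1.89 and -1.28. FGFR1 stood at 51.6 CPM against 32.9 CPM and CHD7 at 168 against 143 CPM. CCDC141, a gene of GnRH neuron migration, was under the minimum but stood at 3.77 CPM against 0.179 CPM, a log2 ratio of 4.40 on 38 and 16 UMIs, and 4.84 at day 24 on 14 and 11.

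Among neuropeptide genes other than GNRH1, 8 of 41 reached the minimum, 4 higher and 4 lower. TAC1 stood at 216 CPM (207 to 226) against 62.5 CPM and HCRT, the orexin precursor, at 67.0 CPM against 22.3 CPM, with log2 ratios of 1.79 and 1.59. TAC1 varied among the clusters of members described below, at 538 CPM in cluster 2 but 68.3 and 82.2 CPM in clusters 1 and 4. NMU, the precursor of neuromedin U, stood at 58.5 CPM against 22.1 CPM. NXPH1, a secreted neurexin ligand, stood at 35.4 CPM against 1.99 CPM, a log2 ratio of 4.15. ADCYAP1, PNOC, TRH and GHRH were lower. KISS1, NPY, POMC, OXT, AVP and VIP had a UMI in 0 of 999 members (up to 0.300%), and GAL, a peptide of GnRH neurons in rodents, had a UMI in 15 members and in 16 of 10061 other cells (0.159%), at 1.69 CPM against 0.202 CPM. Against the DLX-positive cells with little GNRH1, described below, 1 of 5 peptide genes was at least 2-fold higher, NXPH1, and 1 was lower, SST. An HCRT UMI was seen in 36.4% of those cells and 35.7% of members.

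Genes that process and store peptides did not follow the hormone transcript. Of 31 at the minimum, 2 were higher (SCGN and VGF), 5 were lower and 24 lay within 2-fold. The 5 lower genes were SCG2, a granin of secretory granules, at 45.3 CPM against 188 CPM, PCSK1 at 35.1 against 130 CPM, PCSK2 at 45.0 against 154 CPM, SYT4 and RAB3B. In the DLX-only members, where 2.67% of all 8502 genes at the minimum were higher and 4.15% lower, 9 genes of the list were lower. In the same members, KISS1R, PBX3, BCL11B, GFRA2 and CDH10 of the other lists also passed 2-fold on the higher side, and DACH1, MEIS1, ELAVL4, FOXP2, GRIK2, KCNJ6, ROBO1, PLXNA2 and ST8SIA4 on the lower side. CPE, the carboxypeptidase that trims hormone precursors, stood at 387 CPM against 395 CPM, and PCSK1N, which codes for an inhibitor of PCSK1, at 1074 against 1046 CPM. Of 32 genes of the secretory load of the endoplasmic reticulum, 0 passed 2-fold in either direction, with a median log2 ratio of 0.11, and the chaperone HSPA5 stood at 128 CPM against 116 CPM. Against the DLX-positive cells with little GNRH1, described below, 0 of 30 peptide processing and storage genes were at least 2-fold higher. Of these SYT4 was lower and 29 lay within 2-fold, SCG2, PCSK1 and PCSK2 included. BCL11B was at least 2-fold lower and KCNJ6 at least 2-fold higher in the members than in those DLX-positive cells.

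Receptor genes known from GnRH neurons were scarce. Of 29, 25 were under 10 CPM in both groups, 0 were higher and 1 was lower. In the DLX-only members KISS1R was higher, at 10.8 CPM against 3.79 CPM (log2 ratio 1.52). The kisspeptin receptor gene KISS1R had a UMI in 7.71% of members and 3.09% of other cells, at 9.04 CPM against 3.79 CPM, and at day 24 its log2 ratio was -0.77. Among 12 GABA-A receptor subunits, GABRB2 was higher, with a log2 ratio of 3.76, and 2 were lower, among them GABRA2, at 55.7 CPM against 263 CPM. Of 8 glutamate receptor subunits at the minimum, 4 were higher, among them GRIK3, GRIN2B and GRIA2, and GRIA4 was lower. GRIA2, an AMPA receptor subunit, stood at 261 CPM against 87.0 CPM. Set against the DLX-positive cells with little GNRH1, described below, 0 of 9 glutamate receptor subunits were at least 2-fold higher, and GRIN2B was lower. Of 3 chloride transporters at the minimum, 0 passed 2-fold against the other cells. SLC12A5 stood at 81.7 CPM against 61.1 CPM. Of 21 ion channel genes, 0 were higher and 4 lower.

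In migration and guidance, 38 of 54 genes reached the minimum. SEMA3C, UNC5D, EFNB2 and CNTN1 were higher, UNC5C, EPHA3, UNC5B and SLIT1 were lower, and 30 lay within 2-fold. UNC5D, a netrin receptor, stood at 50.0 CPM against 7.08 CPM. The chemokine receptor gene CXCR4 was near absent, at 0.397 CPM against 2.13 CPM. Among 8 cadherins at the minimum, CDH6 (32.9 against 2.55 CPM) and CDH4 were higher and CDH18, CDH12, CDH8 and CDH7 were lower. Of 11 calcium-binding protein genes, SCGN was higher, and CALB2 and NECAB1 were lower.

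The lists that mark other cells bore on what else the members held. Of 17 glutamatergic genes at the minimum, 15 were lower, with a summed level over the 23 listed genes of 762 CPM in members and 2813 CPM in other cells, and 245 CPM in the DLX-only members, which were chosen partly on 3 of these genes. At day 24, 16 of 17 were lower. The list was chosen with earlier results of these data known, so these counts are a description. Among progenitor genes, 4 of 8 were higher, DLK1, SOX2, NES and VIM, whereas MKI67, TOP2A and UBE2C were at 0.497 CPM or less. VIM was not higher throughout the members, at 594 CPM against 295 CPM. In the clusters described below it stood at 1243 CPM in cluster 2 but at 282 and 269 CPM in clusters 1 and 4. Both IRX-positive cell markers at the minimum, CRABP1 and NR2F1, were lower. Of 13 markers of other GABAergic types, TAC1 and MEIS2 were higher, and ETV1, CALB2, MAF and TSHZ1 were lower. NEFL, a neurofilament gene, was the 1 pan-neuronal gene past 2-fold (log2 ratio 1.07). The oligodendrocyte and astrocyte list had 1 gene at the minimum, which was lower, the neural crest list had 0 genes there, and of 6 stress genes 0 passed 2-fold.

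The members were also set against DLX-positive cells with little GNRH1. At day 26, 473 kept cells had at least 3 DLX UMIs and a GNRH1 level under 300 CPM, with a median of 9005 UMIs. Of 3243 genes with at least 50 CPM in 1 group, 4 were at least 2-fold higher (0.123%) and 4 at least 2-fold lower (0.123%) in the members, far fewer than against all other cells. The DLX genes chose the second group, so their ratios are not read. NR2F2, an orphan nuclear receptor of caudal ganglionic eminence interneurons, had the widest difference, at 16.4 CPM in members and 161 CPM in the DLX-positive cells, a log2 ratio of -3.29 (-3.54 to -3.05). Its paralogue NR2F1 stood at 17.6 CPM against 91.5 CPM (-2.38), the G protein subunit gene GNG5 at 15.5 against 53.6 CPM (-1.79), and CRABP2 at 39.7 against 106 CPM (-1.42).

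On the higher side, SEMA3C stood at 91.5 CPM in members against 31.0 CPM in the DLX-positive cells (log2 ratio 1.56, interval 1.31 to 1.82) and NEFL at 1093 CPM against 487 CPM (1.17). CALB1 and RELN had log2 ratios of 1.18 and 1.00. The glutamatergic cells held both as well, CALB1 at 51.7 CPM and RELN at 228 CPM, and the part of that RNA in these ratios was not tested. With only the 847 DLX-positive members these were 0.61 and 0.90, under 2-fold, while SEMA3C stood at 1.64 and NR2F2 at -3.15. With cells of under 3 glutamatergic UMIs on both sides, RELN had a log2 ratio of 2.37, CALB1 of 1.41 and NR2F2 of -3.66. With cells of a doublet score of at least 0.25 left out, RELN stood at 2.11, CALB1 at 1.49 and NR2F2 at -3.66. ISL1 and SCGN differed by less than 2-fold between these groups, with log2 ratios of 0.88 and 0.81, and SIX3 (0.08) and TAC1 (0.11) were nearly equal in summed level. A TAC1 UMI was nonetheless seen in 48.7% of members and 26.2% of the DLX-positive cells. GAD1 and GAD2 were lower in the members by log2 ratios of -1.10 and -0.81, GAD1 from 11.0 CPM against 23.7 CPM. NXPH1 and CDH6, under 50 CPM in both groups, had log2 ratios of 1.75 and 1.70.

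**Figure D4:**
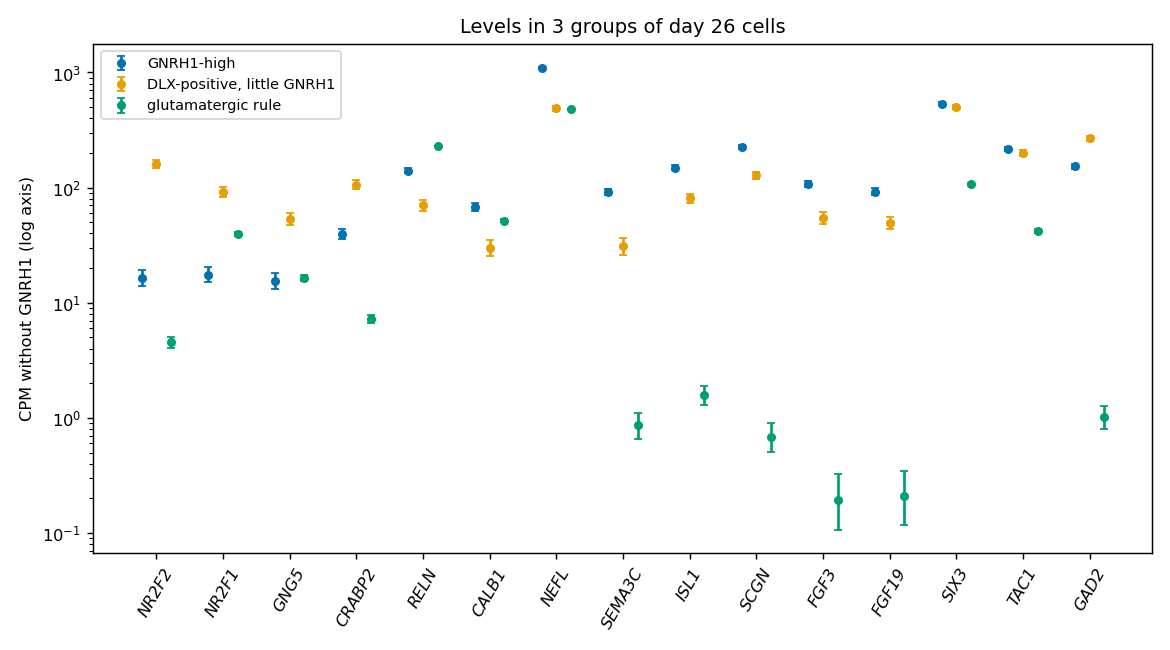
Level in CPM without GNRH1 (y axis, log scale) of 15 genes (x axis) in 999 GNRH1-high cells, 473 DLX-positive cells with little GNRH1 and 7816 cells of the glutamatergic rule, day 26, with bars for exact 95% Poisson intervals. NR2F2 is highest in the DLX-positive cells with little GNRH1, at 161 CPM, and SEMA3C, ISL1, SCGN, FGF3 and FGF19 are highest in the GNRH1-high cells.

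The members were not uniform. Clustered among themselves without GNRH1, they fell into 5 groups at Leiden resolution 0.5, into 3 at 0.25 and into 10 at 1, so the number of groups depended on the resolution. Cluster 1 (306 cells) was led by SCGN, RASD1, DLK1 and SOX6, with SCGN at 520 CPM and a median GNRH1 level of 19065 CPM. Cluster 2 (282 cells) was led by MEIS2, ZNF503, NKAIN3 and TAC1, with MEIS2 at 1424 CPM, TAC1 at 538 CPM, SCGN at 59.9 CPM and the highest median GNRH1 level of the 5, 42878 CPM. Cluster 4 (185 cells) was led by FGF3, FGF19, MEF2C and DLX6-AS1, with FGF3 at 303 CPM, FGF19 at 248 CPM and a GNRH1 median of 29415. Because these genes defined the clusters, their levels are a description. DLX5 was alike in the 3, at 328, 266 and 341 CPM, and GAD2 at 168, 199 and 187 CPM, but DLX1 was lower in cluster 2, at 87.1 CPM against 342 and 346.

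Clusters 3 and 5 stood apart in quality. Cluster 3 (206 cells) was led by MGAT4C, SAMD3 and TBR1, and 82.0% of its cells had at least 3 glutamatergic UMIs. Its median depth was 16541 UMIs, 61.7% of its cells had a doublet score of at least 0.25, and its median GNRH1 level was 11192 CPM. In the other 4 clusters that share of doublet scores was at most 0.709%. Cluster 5 (20 cells), led by PCP4, had a median of 3639 UMIs and 6.74% mitochondrial UMIs, and only 5 of its cells had 3 DLX UMIs.

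**Figure D5:**
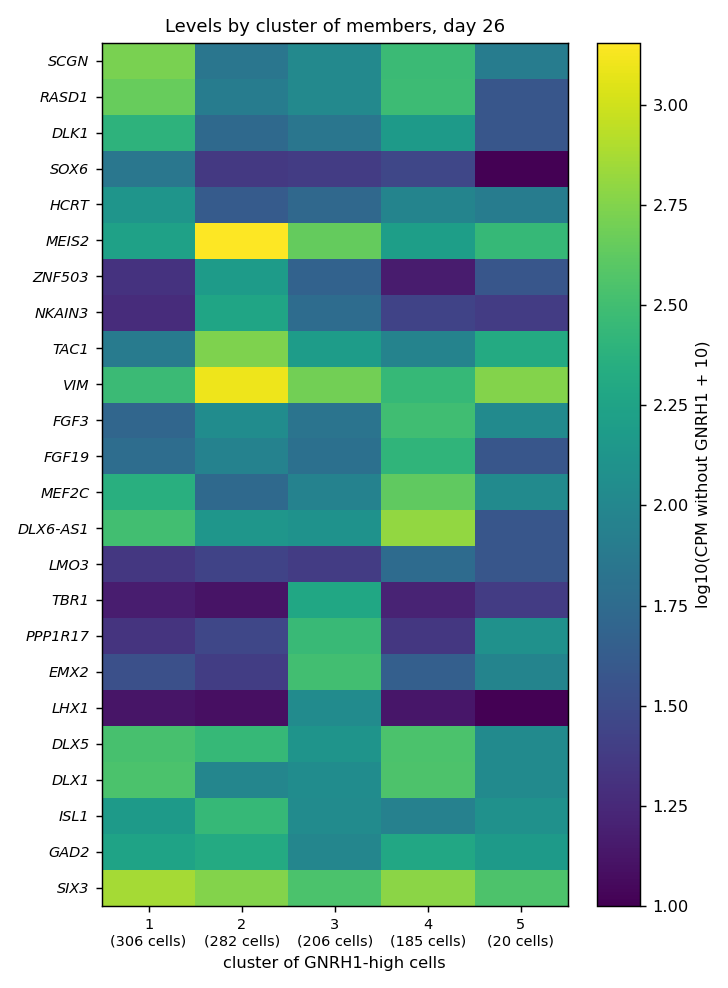
Level of 24 genes (rows) in the 5 clusters of GNRH1-high cells of day 26 (columns), as log10 of CPM without GNRH1 plus 10 (colour), from summed UMIs. SCGN and RASD1 are brightest in clusters 1 and 4, MEIS2, TAC1 and VIM in cluster 2, FGF3 and FGF19 in cluster 4, and TBR1, PPP1R17, EMX2 and LHX1 in cluster 3.

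The contrast between TAC1 and SCGN among the members was wide at day 26 and narrow at day 24, a difference that was not tested. Among members with under 3 glutamatergic UMIs, the 392 cells with a TAC1 UMI had MEIS2 at 959 CPM, SCGN at 203 CPM and GNRH1 at 42924 CPM of the other UMIs, and the 426 cells without one had 244 CPM, 364 CPM and 30204. At day 24, MEIS2 stood at 376 CPM in 112 cells with a TAC1 UMI and 340 CPM in 192 cells without, and SCGN at 57.9 and 65.0 CPM. TAC1 itself stood at 69.4 CPM in all GNRH1-high cells of day 24 and 216 CPM in those of day 26. A split on 1 TAC1 UMI is thus less sharp at day 24, and the part of this in the narrow contrast was not tested. FGF3 went with FGF19 on both days. It stood at 296 CPM with and 30.2 CPM without an FGF19 UMI at day 26 (279 and 539 cells), and at 129 and 41.0 CPM at day 24 (160 and 144 cells). At day 24 the clusters were 3. The largest (184 cells) was led by DLX6-AS1, and the smallest (60 cells) by RSPO3, LHX5-AS1 and EMX2, with a median depth of 14140 UMIs.

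Between the GNRH1-high cells of day 24 and day 26, many genes differed in CPM, and the libraries cannot be told apart from the days. The median log2 difference of day 26 over day 24 over 3240 genes was 0.30, with 195 genes at least 2-fold higher (6.02%) and 33 lower (1.02%). CPM share a fixed total, so that median does not measure RNA per cell. The calls were not centred on it, so a higher call lay nearer to the median than a lower call, which favours higher calls. SCGN stood at 224 CPM on day 26 and 56.3 CPM on day 24 (log2 difference 1.99), and TAC1 at 216 and 69.4 CPM (1.64). In the other cells of the same libraries these differences were 2.54 and 3.02. SOX2, a progenitor factor, stood at 26.9 and 111 CPM (-2.04), where the other cells differed by -0.59. LMO3, a LIM-only factor, stood at 20.2 and 53.7 CPM (-1.41), while in the other cells it differed by 1.37. FGF19 stood at 92.5 and 147 CPM and DLX5 at 246 and 220 CPM.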

How the data were processed

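For each of days 22, 24 and 26, the authors deposited the UMI count of each gene in each barcode of 1 Chromium 3′ library of WA09 cells, aligned to GRCh38 and counted with Cell Ranger 3.1 per the labels, without normalization. The other libraries of the series were not analysed here. The members, lists and markers were chosen with earlier results of these data known. UMIs were summed over the cells of a group and scaled to CPM, leaving out GNRH1. Intervals are at 95%, exact Poisson for levels, Clopper-Pearson for shares, and for ratios the Clopper-Pearson bounds on how a gene's UMIs divided between groups. These cover counting error only, take UMIs as independent, and a share of 0 is limited by 3 counts. With 1 library a day there was no test. A gene was called at a 2-fold ratio with at least 50 CPM in 1 group (lists: 10 CPM). The genes named are the markers, list genes (extremes and defining genes) and the 15 highest and 15 lowest. Some items are not reported here. CCDC141 and GAL under 10 CPM, NXPH1 and CDH6 under 50 CPM, and genes of clusters and of the DLX-positive comparison were picked with their values in view.

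Cells were clustered with scanpy 1.11.5 on 2000 variable genes without GNRH1, 30 components and 20 neighbours. Doublets stayed in. Scrublet's automatic threshold marked 1 of 11060 cells and had not worked, so a score of 0.25 was used, which marked 882 (7.97%) and 130 members (13.0%). The calculation of ratios and calls was checked on simulated counts with known folds. Positions come from GENCODE 44 and promoters from RefSeq, GRCh38.p14. The alternatives tried were other GNRH1 limits, stricter cell filters, doublet removal, GNRH1 kept in the total, a mean over cells, thinning to 1500 UMIs, comparison with glutamatergic cells, other minima and, chosen after seeing the data, DLX-only members.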

Additional observations from a re-analysis of the deposited data

Results flagged for a closer look

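Among the barcodes that the filter removed from day 26, hormone transcript was also present. Of 1111 removed barcodes, 110 (9.90%, 8.21% to 11.8%) had GNRH1 at or above 3000 CPM of the barcode, with a median of 1160 UMIs. At that depth a few GNRH1 UMIs reach the limit. GNRH1 made up 0.327% of the UMIs of all day 26 barcodes, which is itself above the limit. Whether these barcodes were GNRH1-high cells was not tested. These barcodes were in none of the comparisons. At day 24, 41 of 795 removed barcodes were at or above the limit (5.16%), and at day 22, 0 of 285.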

How the results depend on the processing

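The share of kept cells that were members was 11.3% with a GNRH1 limit of 1000 CPM and 6.77% with 10000. The other filters left it between 8.54% and 9.04%. The counts of 61 higher and 76 lower genes became 181 and 232 at a minimum of 10 CPM and 38 and 35 at 100 CPM, and 84 and 117 with only the DLX-only members. Under the other settings they lay between 57 and 76 and between 72 and 104. Of 102 named genes past 2-fold, all with a value kept their direction under each of the 10 settings, and 98 to 102 stayed past 2-fold. These settings reuse much of the same cells. The DLX-only members and the glutamatergic cells were chosen on some of the named genes, so there the direction was partly fixed. The comparison with DLX-positive cells with little GNRH1, where only 4 genes were higher and 4 lower, is not among the 10. No paired analysis was possible because each day is 1 library and the labels give no replicate numbers. Nothing here has a replicate, and the ratios given for genes under 10 CPM rest on few UMIs.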
